A study of Oryza sativa with 4 samples.

Results

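Expansins are small secreted proteins that loosen the plant cell wall, and 10 rice expansin genes were followed here in seedlings of transgenic line 40 and of the wild type. The set was chosen by locus identifier: the alpha-expansin genes EXPA1 to EXPA7 and the beta-expansin genes EXPB2, EXPB3 and EXPB4, 10 of the 52795 loci on the array. Each had 1 probe, and all 10 probes were well above background on all 4 arrays, so every member was tested.

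Line 40 (n = 2 arrays) is a transgenic line of the japonica rice cultivar Nipponbare that overexpresses the locus LOC_Os02g43330, named HOX24, which encodes a class I homeodomain-leucine zipper (HD-ZIP) transcription factor. The wild type (WT, n = 2 arrays) is Nipponbare. All plants came from imbibed seed, were raised in soil pots in a greenhouse and were sampled as whole seedlings at 14 days. Line 40 is the only transgenic line, so its differences cannot be told apart from those of other changes the line may carry, and the promoter that drives the transgene is not given in the sources used here.

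In growing tissue the cellulose microfibrils of the wall are tethered by matrix polysaccharides, and turgor can stretch the wall only where these contacts slip. Expansins act at low wall pH and release the contacts without cutting the polymers, which sets them apart from wall hydrolases. Alpha-expansins are the main agents of this acid-induced wall extension, while beta-expansins form an enlarged family in grasses, whose walls are rich in arabinoxylan. In rice, alpha- and beta-expansin genes have been studied in elongating internodes, coleoptiles and roots.

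HOX24 itself had processed signals of 229115 and 280179 on the line 40 arrays, against 1449 and 2116 on the WT arrays, a log2 difference of 7.20 (SE 0.16; limma adjusted p = 0.00106). Pearson's r across the tested loci was 0.991 between the line 40 arrays and 0.983 between the WT arrays. The 75th percentile of the signal, by which each array was scaled, was 404 and 431 on the line 40 arrays and 367 and 488 on the WT arrays. In total 342 of 36902 tested loci were higher and 421 lower in line 40 (limma, adjusted p below 0.05), or 251 higher and 156 lower after quantile normalization. Processed signals are fluorescence intensities, and normalized values are log2 of that signal after dividing it by the array's 75th percentile. Probes differ in brightness, so levels were compared between arrays for the same probe and not between genes.

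None of the 10 expansin genes passed the test in line 40 (limma, adjusted p below 0.05), while the shares of all tested loci that passed were 0.927% higher and 1.14% lower, 2.07% in all. EXPA4 and EXPA5 came closest, each about 1.7-fold above WT with no overlap between the groups (1.74-fold and 1.73-fold). Of the 10 log2 differences, 7 lay above 0 and 3 below, where 43.7% of all tested loci lay above 0. The members' median was 0.29, against -0.06 over all tested loci. At an unadjusted p below 0.05, 3 members were higher (EXPA4, EXPA5 and EXPA6) and 0 lower, where the shares of all tested loci were 10% and 14.8%. EXPA6 missed that level in 7 of the 14 alternatives, and EXPA4 and EXPA5 in none of them. On 6 genes both line 40 arrays lay above both WT arrays, on 0 genes both lay below, and on 4 the groups overlapped. After quantile normalization or cyclic loess these counts were 5 above and 2 below, and after normexp 6 above and 1 below. The shares of all tested loci without overlap were 25.1% higher and 34.3% lower as reported, 59.4% in all. Higher and lower shares were 28.5% and 29.9% after quantile normalization, 29% and 30.8% after cyclic loess, and 23.1% and 26.9% after normexp.

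**Figure D1:**
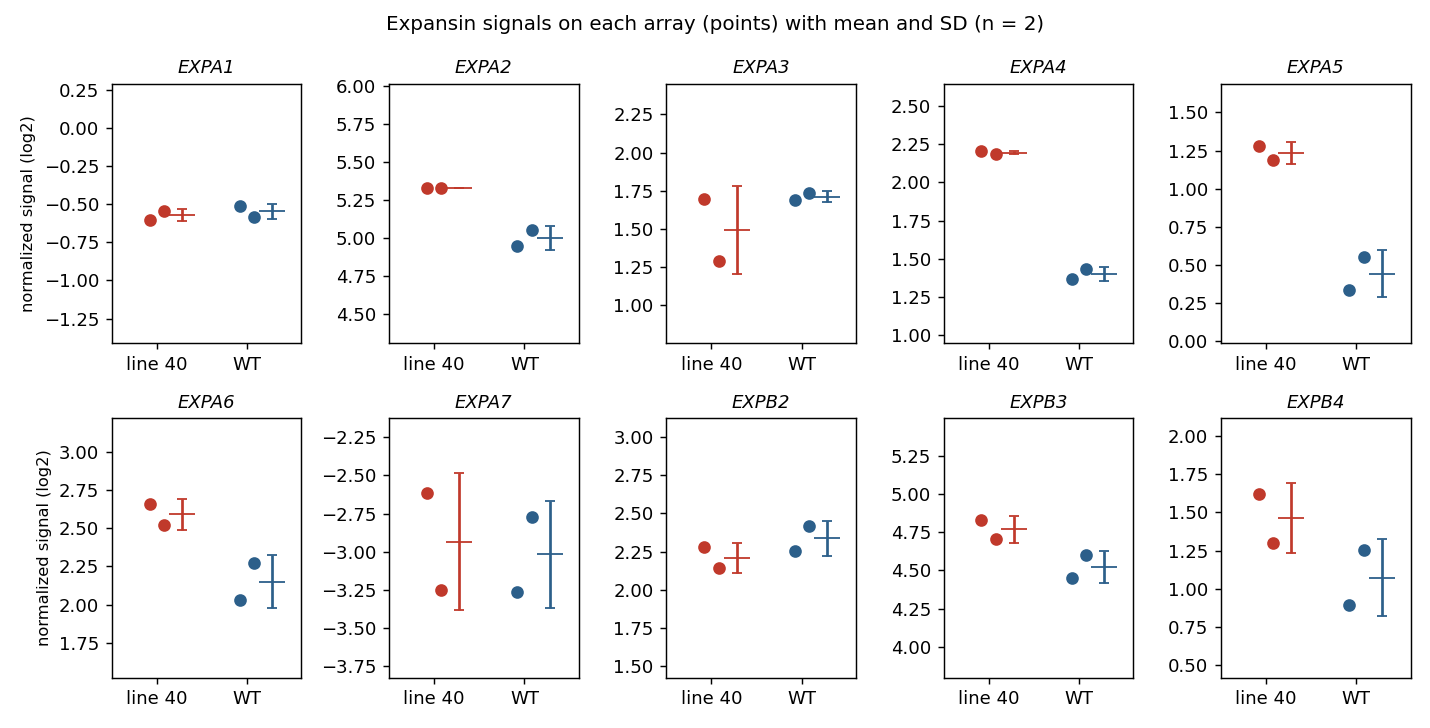
Normalized log2 signal (vertical axis, log2 of the signal over the array's 75th percentile; each panel spans the same range) of the 10 expansin genes on the line 40 arrays (red, left) and the WT arrays (blue, right). Points are single arrays and the bar beside them is the mean with its SD (n = 2); EXPA4 and EXPA5 show the widest gaps between the groups, and EXPA1, EXPA3, EXPA7 and EXPB2 overlap.

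EXPA4 (LOC_Os05g39990) is an alpha-expansin gene known in rice from work on coleoptile and stem growth. Its processed signals were 1860.4 and 1962 on the line 40 arrays, against 947 and 1316 on the WT arrays. Even before scaling, both line 40 arrays lay above both WT arrays. After scaling, EXPA4 averaged 2.20 ± 0.01 in line 40 and 1.40 ± 0.04 in WT (SD, n = 2 each). The log2 difference was 0.80 (SE 0.14; 95% interval 0.43 to 1.16), which corresponds to 1.74-fold, and limma's adjusted p was 0.0669. The gap between the nearest arrays of the groups was 0.76, far wider than the 0.06 between the WT arrays. The adjusted p passed with median scaling (0.0278), after normexp background correction (0.0265) and with an intensity trend in the variance prior (0.0174). It reached 0.276 without line 40 replicate 1.

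EXPA5 (LOC_Os02g51040), another alpha-expansin gene, gave much the same difference. Its signals were 982 and 979 on the line 40 arrays, against 463 and 715 on the WT arrays. The line 40 arrays lay close together and above both WT arrays, which were further apart. Normalized means were 1.23 ± 0.07 in line 40 and 0.44 ± 0.15 in WT (SD, n = 2 each). The log2 difference of 0.79 (SE 0.16; 95% interval 0.38 to 1.20) is 1.73-fold, with limma's adjusted p at 0.0792. Here too the adjusted p passed with median scaling (0.0350), after normexp (0.0385) and with the intensity trend (0.0268), and it reached 0.322 without line 40 replicate 1. EXPA4 lies on chromosome 5 and EXPA5 on chromosome 2.

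EXPA6 (LOC_Os03g21820), also an alpha-expansin gene, followed with a smaller difference. It had signals of 2554 and 2471 on the line 40 arrays, against 1494 and 2362 on the WT arrays. Again the groups did not overlap, but WT replicate 2 lay near the line 40 arrays. EXPA6 averaged 2.59 ± 0.10 in line 40 and 2.15 ± 0.17 in WT (SD, n = 2 each), a log2 difference of 0.44 (SE 0.17; limma adjusted p = 0.195). Its 95% interval, 0.01 to 0.87, allows folds between 1.01 and 1.83. EXPA4, EXPA5 and EXPA6 were the 3 members whose unscaled line 40 signals all exceeded the unscaled WT signals.

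EXPA2 (LOC_Os01g60770), an alpha-expansin gene studied in rice internodes, gave bright spots. Its signals were 16195 and 17278 on the line 40 arrays, against 11295 and 16222 on the WT arrays. Once scaled, the line 40 arrays coincided at 5.33, while the WT arrays stood at 4.95 and 5.05. The log2 difference was 0.33 (SE 0.14; 95% interval -0.05 to 0.70; limma adjusted p = 0.244). It shrank to 0.07 after quantile normalization and 0.11 after cyclic loess.

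The other 3 alpha-expansin genes overlapped between the groups. EXPA1 (LOC_Os04g15840) had signals of 266 and 296 on the line 40 arrays, against 257 and 326 on the WT arrays. Its log2 difference was -0.02, and the 95% interval from -0.39 to 0.35 allows folds between 0.76 and 1.27 (limma adjusted p = 0.93). The sign of that difference turned with median scaling (0.12) and quantile normalization (0.034). EXPA3 (LOC_Os05g19570) had 1311 and 1051 on the line 40 arrays, against 1180.1 and 1626 on the WT arrays. Its line 40 arrays were 0.41 apart on the log2 scale and 1 of them fell within the WT range, so that the difference of -0.22 (SE 0.19; 95% interval -0.72 to 0.28; limma adjusted p = 0.52) was smaller than the distance between them. That difference was -0.01 without line 40 replicate 2 and -0.42 without line 40 replicate 1. EXPA7 (LOC_Os03g60720), which has been linked to salt tolerance in rice, was the dimmest member. It had 65.8 and 45.2 on the line 40 arrays, against 38.1 and 71.5 on the WT arrays. In each group the arrays differed by more than the groups did, by 0.63 in line 40 and 0.49 in WT. The log2 difference was 0.08 (SE 0.29; 95% interval -0.67 to 0.84; limma adjusted p = 0.879), and it lay at -0.0067 after normexp. On WT replicate 1 the raw EXPA7 spot was only 2.16 times its local background, whereas the lowest such ratio among the other 9 members was 10.1.

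**Figure D2:**
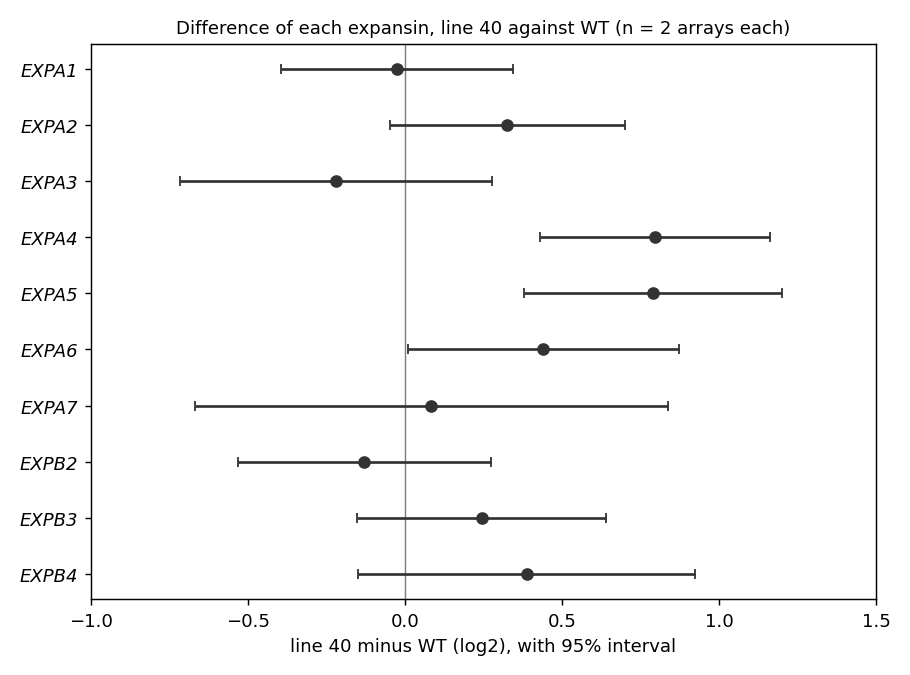
Difference between line 40 and WT (horizontal axis, log2, line 40 minus WT) for each expansin gene, with limma's moderated 95% interval (n = 2 arrays per group). The intervals of EXPA4, EXPA5 and EXPA6 lie above 0, unadjusted for the number of loci tested, and the other 7 include it.

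The 3 beta-expansin members lie side by side on chromosome 10. In the RefSeq gene table EXPB6, EXPB2, EXPB3 and EXPB4 follow each other without another protein-coding gene between them. EXPB3, EXPB4 and EXPB6 have been studied in gibberellin-treated internodes of deepwater rice. As relatives in a tandem array they may share sequence, and whether a probe also binds a neighbour's transcript was not tested.

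EXPB2 (LOC_Os10g40710) had signals of 1959.6 and 1898 on the line 40 arrays, against 1752 and 2611 on the WT arrays. The groups overlapped, and the log2 difference was -0.13 (SE 0.16; 95% interval -0.53 to 0.27; limma adjusted p = 0.643), or 0.017 with median scaling. EXPB3 (LOC_Os10g40720) had signals of 11502.5 and 11241 on the line 40 arrays, against 8013 and 11821.5 on the WT arrays. Unscaled signals overlapped, and scaled values did not, by a gap of 0.11. Its log2 difference of 0.25 (SE 0.15; 95% interval -0.15 to 0.64; limma adjusted p = 0.373) fell to 0.07 after quantile normalization and 0.05 after cyclic loess. EXPB4 (LOC_Os10g40730) had signals of 1243 and 1059 on the line 40 arrays, against 682 and 1161 on the WT arrays. Its arrays spread widely in both groups and were separated by only 0.05 after scaling. The log2 difference was 0.39 (SE 0.21; 95% interval -0.15 to 0.92; limma adjusted p = 0.311), between 0.21 without WT replicate 1 and 0.56 without WT replicate 2. EXPB6 (LOC_Os10g40700), the fourth gene of the row and not one of the 10, lay at 0.26 (SE 0.15; limma adjusted p = 0.345), with signals of 8022 and 8723 on the line 40 arrays and 5842 and 8653 on the WT arrays. Neighbouring genes thus differed in sign, EXPB2 below 0 and the other three above, with intervals that all include 0, and all 4 lay above 0 with median scaling.

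By class, the 7 alpha-expansins had a median log2 difference of 0.33 and ranged from -0.22 to 0.80. The 3 beta-expansins had a median of 0.25 and ranged from -0.13 to 0.39. WT replicates were further apart than line 40 replicates for 8 of the 10 members. The members' median distance was 0.16 between WT arrays and 0.13 between line 40 arrays, against 0.23 and 0.16 over all tested loci. WT replicate 2 had the higher normalized value on 9 members, against 54.8% of all tested loci. Unscaled signals of WT replicate 2 were 1.27 to 1.87 times those of WT replicate 1. The ratio between the 75th percentiles of these arrays was 1.33, and all members but EXPA1 lay above it.

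The difference between the groups also moved with brightness over all loci. In the dimmest 10% of tested loci the median log2 difference was -0.49, and in the brightest 10% it was 0.13. Among the members 8 fell in the 3 brightest deciles, whose medians were 0.04, 0.06 and 0.13 from dim to bright. There 33.8%, 36.9% and 44.6% of the loci had line 40 above WT without overlap. Shares called by limma (adjusted p below 0.05) were 0.732%, 0.678% and 1.65% higher in these deciles, and 0.325%, 0.217% and 0.135% lower. In the dimmest 10% they were 1.3% higher and 7.29% lower. EXPA4 and EXPA5 lay 0.73 and 0.75 above the medians of their own deciles, and EXPA2 and EXPB3 lay 0.20 and 0.12 above theirs. The part of brightness in the members' differences was not tested.

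**Figure D3:**
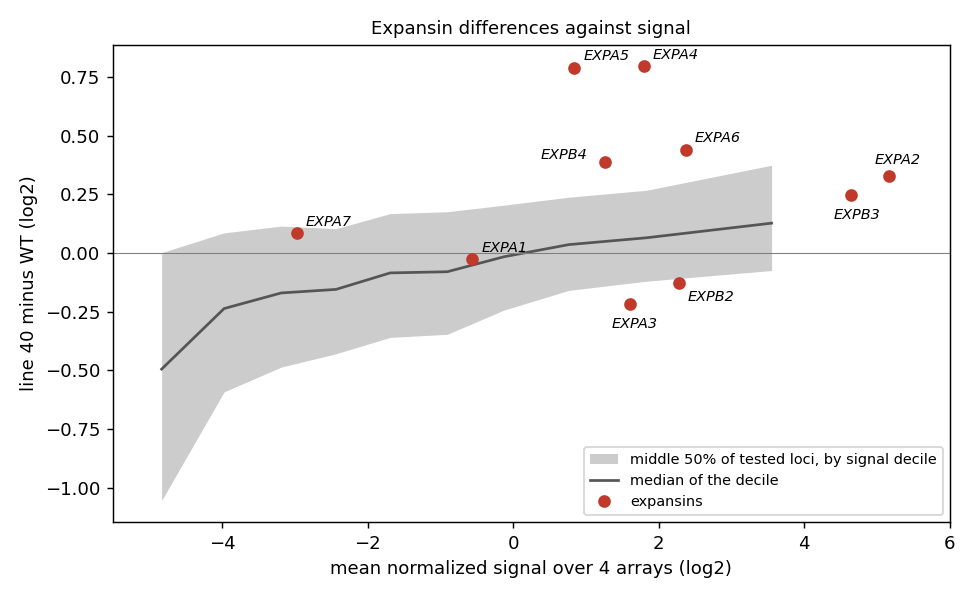
Difference between line 40 and WT (vertical axis, log2) against mean normalized signal over the 4 arrays (horizontal axis, log2). Red points are the 10 expansin genes, the line joins the medians of the deciles of tested loci, and the grey band holds the middle 50% of each decile. EXPA4 and EXPA5 stand highest, 0.73 and 0.75 above their decile medians, while EXPA3 and EXPB2 lie below the line.

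Beyond the 10 members, 18 other expansin and expansin-like genes were listed, and the list does not cover the whole family. Of the 18, 14 were tested and none passed (limma, lowest adjusted p = 0.185). At an unadjusted limma p below 0.05, 1 was higher and 0 lower, where the shares of all tested loci were 10% and 14.8%. Their median log2 difference was 0.16, with 8 above 0 and 6 below, where 43.7% of all tested loci lay above 0. On 4 of the 14 the line 40 arrays lay above the WT arrays and on 2 below, against 25.1% and 34.3% of all tested loci. The 4 untested loci, EXPA32, EXPB1, EXPB10 and EXPB13, were not well above background on any array. EXPB1 and EXPB10 belong to the beta-expansins that grass pollen makes abundantly.

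EXPB11 (LOC_Os02g44108), a beta-expansin gene, had the smallest adjusted p of that list. Its signals were 2083 and 1904 on the line 40 arrays, against 1129 and 1822 on the WT arrays, a log2 difference of 0.49 (SE 0.18; limma adjusted p = 0.185). WT replicate 2 approached the line 40 arrays, as it did for EXPA6.

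EXPA10 (LOC_Os04g49410), known in rice as a root alpha-expansin gene that aluminium induces, stood apart from the other expansins tested here. It had signals of 14.9 and 21.9 on the line 40 arrays, against 459.6 and 48.1 on the WT arrays. Both line 40 arrays were low, and the WT arrays differed from each other more than WT replicate 2 differed from line 40. The log2 difference was -3.02 (SE 1.18; 95% interval -6.07 to 0.03; limma adjusted p = 0.205). After normexp the difference was -1.54. It was -1.19 without WT replicate 1 and -4.86 without WT replicate 2, so its size rests on 1 WT array and on the background correction.

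**Figure D4:**
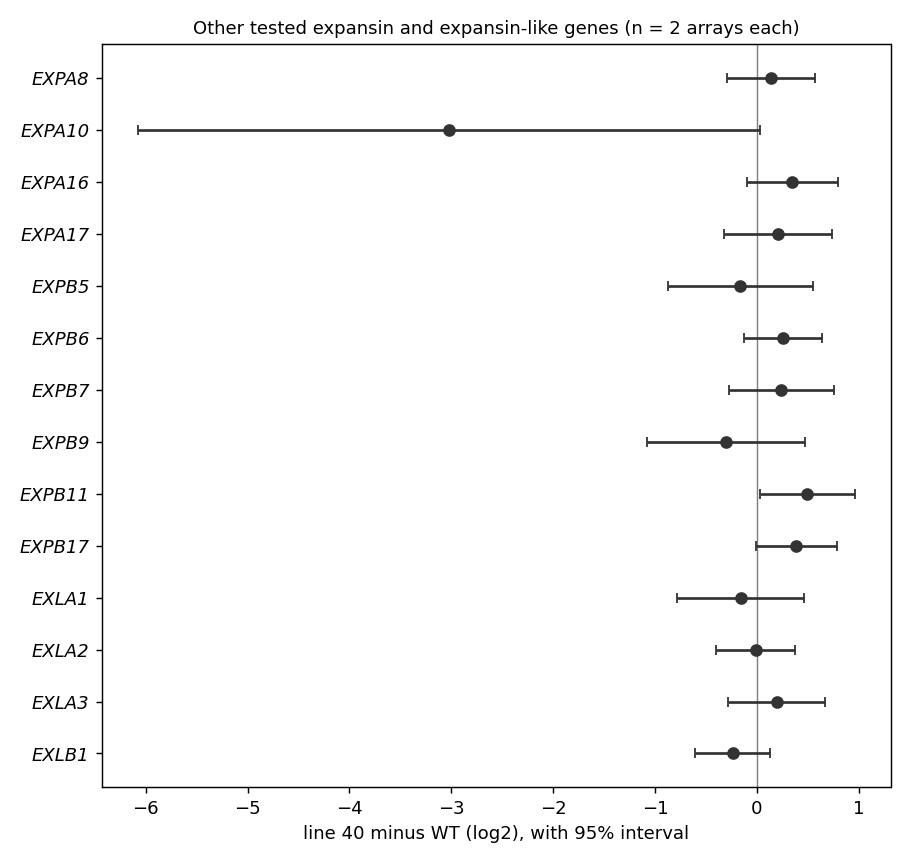
Difference between line 40 and WT (horizontal axis, log2, line 40 minus WT) for the 14 other tested expansin and expansin-like genes, with limma's moderated 95% interval (n = 2 arrays per group). EXPA10 lies at -3.02 with an interval from -6.07 to 0.03, and the other 13 points lie between -0.30 and 0.49.

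Genes that build or remodel the wall around expansins were listed too: cellulose synthases, a COBRA-like gene, xyloglucan endotransglucosylase/hydrolases (XTH) and the locus LOC_Os03g21210. Of 17 loci, 14 were tested and none passed (limma, lowest adjusted p = 0.102). At an unadjusted limma p below 0.05, 2 were higher and 0 lower, where the shares of all tested loci were 10% and 14.8%. The median log2 difference was 0.01, less than the median of the 10 expansins. Of the 14 differences 7 lay above 0 and 7 below, where 43.7% of all tested loci lay above 0. LOC_Os02g57770, a listed locus whose symbol had no entry in the gene table, lay at 0.84 (SE 0.20; limma adjusted p = 0.102), with signals of 352 and 408 on the line 40 arrays and 161 and 288 on the WT arrays. XTH8 (LOC_Os08g13920), of the enzymes that cut and rejoin xyloglucan, lay at 0.58 (SE 0.15; limma adjusted p = 0.117), with 2275 and 2179 on the line 40 arrays and 1279 and 1789 on the WT arrays. Both passed in limma with the intensity trend (adjusted p = 0.0464 for LOC_Os02g57770 and 0.0467 for XTH8), and LOC_Os02g57770 also with median scaling (0.039).

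Whole seedlings hold leaf, root and dividing tissue, and fewer cells of a type cannot be told apart from less RNA per cell in such samples. All 6 leaf, 6 root and 3 dividing-cell markers were well above background on all 4 arrays, so none of the defining markers was at 0. Summed normalized signal of the leaf markers, on a linear scale, was 2872 to 2948 in line 40 and 2318 to 2678 in WT. For root markers it was 171 to 172 in line 40 and 114 to 133 in WT, and for dividing-cell markers 6.24 to 7.31 in line 40 and 4.80 to 4.95 in WT. Such sums follow the brightest probes, LOC_Os02g44310 among the root markers (log2 difference 0.49) and CAB2R and RCA among the leaf markers (0.18 and 0.09). Of the 6 leaf markers 5 lay above 0 and 1 below, with a median log2 difference of 0.52. Of the 6 root markers 3 lay above 0 and 3 below. Of the leaf markers 2 rose, the Rubisco small subunit gene RBCS (LOC_Os12g17600) by 1.44 (SE 0.15; limma adjusted p = 0.0276) and LOC_Os07g37240 by 1.38 (SE 0.17; limma adjusted p = 0.0359). Of the root markers LOC_Os06g48810 rose by 1.77 (SE 0.19; limma adjusted p = 0.0279), while the 6 together had a median of -0.01. These calls depended on the processing: of the 14 alternatives, RBCS missed the threshold in 5, LOC_Os07g37240 in 7 and LOC_Os06g48810 in 4. All 3 missed it without the filter on dim probes, without line 40 replicate 1 (limma adjusted p 0.0812, 0.0829 and 0.0692) and without WT replicate 1 (0.0977, 0.129 and 0.122). The 3 dividing-cell markers PCNA, CYCB2-1 and CDKB2-1 lay at 0.46, 0.51 and 0.45, none past the threshold (limma, lowest adjusted p = 0.129). All 3 were higher at an unadjusted limma p below 0.05 and without overlap, where the shares of all tested loci were 10% and 25.1%. The part of tissue makeup in the expansin differences was not tested.

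**Figure D5:**
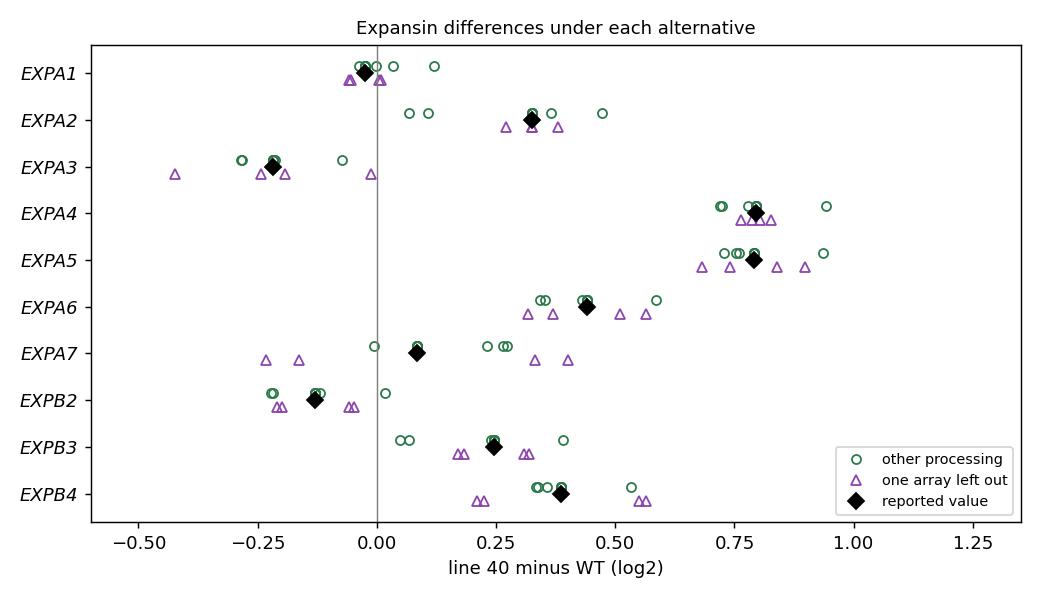
Difference between line 40 and WT (horizontal axis, log2) of each expansin gene as reported (black diamonds), under the other processing settings (green circles) and with 1 array left out (purple triangles). EXPA4 stays between 0.72 and 0.94 and EXPA5 between 0.68 and 0.94, whereas EXPA1, EXPA7 and EXPB2 cross 0.

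Across 14 alternatives in scaling, background correction, filtering, modelling and arrays left out, EXPA2, EXPA4, EXPA5, EXPA6, EXPB3 and EXPB4 lay above 0 in every setting run, and EXPA3 below. Much of this was fixed in advance. The settings for filtering, probe choice, variance trend and block left every member's difference as reported, and median scaling moved all loci upward alike. Leaving out an array cannot turn the sign of a gene whose groups do not overlap. Only quantile normalization, cyclic loess and normexp could have turned the genes above 0, and they did not. EXPA4 ranged from 0.72 to 0.94 and EXPA5 from 0.68 to 0.94. EXPA6 ranged from 0.32 to 0.59 and EXPB4 from 0.21 to 0.56. EXPA7 ranged from -0.23 to 0.40, the widest range of the 10.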

How the data were processed

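Total RNA of whole seedlings was labelled with Cy3 and hybridised to 1-colour Agilent arrays, 2 per group. Per the file headers, the deposited spot intensity is the processed signal of Agilent Feature Extraction 10.7.1.1, whose correction settings are not given in the sources used here. The flags (0 or 1) deposited by the authors with the spots mark detection and uneven spots. The whole-series value table equals it at all 62976 spots of each array, so no alternative came from it. The design states biological replicates, and the number of arrays limits the precision. No array had a saturated spot.

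From the deposited intensities, each signal was divided by the 75th percentile of its array and taken to log2. Control spots (1319) and 32 probes with uneven spots were left out, repeated spots averaged, and a locus was its brightest tested probe. Probes entered the test where both arrays of line 40, or both of WT, were well above background (36902 loci). Groups were compared with limma 3.58.1 in R 4.3.3 (two-sided, Benjamini-Hochberg over all tested loci). The code was also run on simulated data with added differences, which checks the computation and not the calls on these arrays. Normexp (offset 50) used median spot signals, as no mean signal column was found.

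The members and lists were chosen with earlier results of these data known. Named genes are all members, from each list those past the threshold, and the 2 with the smallest adjusted p of the other expansins and of the wall genes, besides EXPB6 as the neighbour of the members, the 4 untested expansins, the dividing-cell markers and the brightest leaf and root markers, which were chosen after their values were seen. Symbols were checked by chromosome and order against RefSeq assembly ASM3414082v1: all 10 members passed. A wrong locus lying in the right order on the chromosome would pass too, so the check does not establish a pair of locus and symbol. Among the other expansins 2 had no entry, EXPB1 and EXPB13, so their symbols are unchecked. No entry was found either for 6 wall genes, 1 leaf marker and 2 root markers, and 1 leaf marker was out of order. That marker, LOC_Os12g19470, and LOC_Os12g17600 share the symbol RBCS and matched the same entry, so the check did not tell them apart. The array design rests on another build (IRGSP5), so no coordinates are given.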

Additional observations from a re-analysis of the deposited data

How the results depend on the processing

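Under the 14 alternatives no member passed in the lower direction, and 2 (EXPA4 and EXPA5) passed as higher with median scaling, after normexp and with an intensity trend, against 0 as reported. EXPA4 then lay at 0.94, 0.78 and 0.80, and EXPA5 at 0.94, 0.73 and 0.79. With 1 array left out at a time the count of members past the threshold was 0 each time, for both directions. EXPA1 turned to 0.12 with median scaling and 0.034 after quantile normalization, and ranged from -0.059 to 0.0088 with arrays left out. EXPA7 turned to -0.0067 after normexp and ranged from -0.23 to 0.40 with arrays left out, and EXPB2 turned to 0.017 with median scaling. Median scaling moved every tested locus, members included, by the same 0.15. The members' median therefore stood 0.35 above that of all tested loci with either scaling, by arithmetic alone. That gap was 0.18 after quantile normalization and 0.20 after cyclic loess. Loci called over the whole array were 1481 higher and 1239 lower with median scaling, 762 higher and 333 lower after normexp, 15 and 8 without the filter on dim probes, and 1233 and 904 with the intensity trend. Lower loci were 156 after quantile normalization, 252 after cyclic loess and 169 when all 4 arrays had to be well above background. With an array left out, 71 (without WT replicate 1) to 300 loci were higher and 253 to 1486 (without WT replicate 2) lower; the lone array of a group is then assumed to vary like the other group. Without line 40 replicate 1 253 were lower, and without line 40 replicate 2 222 were higher. With the replicate number as a block, 313 loci were higher and 452 lower and no member passed (lowest adjusted p = 0.117). Same-numbered arrays did not deviate together (r = -0.07 across loci), so the numbers were not taken as a pairing. The cause of these shifts was not tested. With 2 arrays per group the intervals of all 10 members are wide, and EXPA7 lay nearest to background.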
